A study of Mus musculus with 6 samples.

Results

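The genes described here are 74 zinc finger genes that stand in dense runs on mouse chromosomes 2, 4, 13 and 17, of 52459 gene symbols listed. They were chosen by name and place: a symbol of Zfp plus digits only, and a position inside 1 stretch on each of those chromosomes. The stretches themselves were selected on the DON and Control values of these 6 libraries, so every difference given for a member is a description without a test. The runs held 10 members on chromosome 2 (175372436 to 178078476), 18 on chromosome 4 (145510759 to 147848366), 25 on chromosome 13 (62129886 to 67827002) and 21 on chromosome 17 (21008941 to 23193252), positions as listed in the files. A further 300 genes with a Zfp-plus-digits name lay elsewhere. Of the 74 members, 62 reached 10 normalized counts in at least 3 libraries and entered the fit.

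The libraries carry the label of γδ T cells of spleen from C57BL/6 mice; these are T lymphocytes whose antigen receptor is made of γ and δ chains. In the DON group (n = 3 libraries) the cells received IL-23, IL-1β and DON, an agent that the labels do not spell out, for 3 days. In the Control group (n = 3) they received IL-23 and IL-1β without DON. In both groups the culture plates carried anti-CD3 and anti-CD28, antibodies that activate T cells. Separate mice or cultures behind the libraries are not stated in the labels, so errors and p-values measure the spread between libraries, which may be technical. Recovered totals ran from 35717703 to 40840099 units in DON and from 33715873 to 37888926 units in Control.

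Markers of the labelled cell type were present: Trdc, which encodes the constant region of the δ receptor chain, averaged 4451 ± 151 normalized counts in DON and 4568 ± 136 in Control (SD, n = 3 each). Trac, the constant region gene of the α chain of the other kind of T cell receptor (named after its values were seen), averaged 12028 ± 860 in DON and 10889 ± 124 in Control. Summed over 13 B cell markers, counts ran from 62196 to 70815 in DON and from 97140 to 101178 in Control, and limma called 12 of the 13 lower in DON. Summed over 9 neutrophil markers they ran from 2423 to 2869 in DON and from 11269 to 11947 in Control, with 7 of 9 called lower. Of 9 γδ and T cell markers, 3 were called lower and 1 higher. The 14 macrophage and monocyte markers had 2 lower and 5 higher, and the 8 erythroid markers 0 lower and 1 higher. Over all genes tested, 4.15% were called lower and 2.3% higher. None of these markers was at 0 in all libraries. In such bulk libraries fewer cells of a type and less RNA per cell cannot be told apart, and the part of these other cells in the values of the zinc finger genes was not tested.

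Most genes of this kind encode Krüppel-associated box (KRAB) zinc finger proteins. Their array of C2H2 fingers reads DNA sequence, often in endogenous retroviruses and other mobile elements, and the KRAB domain recruits TRIM28 (KAP1), which brings in the histone methyltransferase SETDB1 and other silencing factors. The family grows by tandem duplication, so neighbouring genes are often close copies, and several of the mouse runs are known for repressing mobile elements in embryonic stem cells. The run on chromosome 13 also holds the regulators of sex limitation, named for keeping male liver genes silent in females.

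Close copies could be read in the start regions of chromosomes 2 and 4, and in some pairs on chromosomes 13 and 17. Windows of 250 bases before to 50 bases after a RefSeq start (GRCm38.p6) were matched for 50 members, 9 on chromosome 2, 10 on chromosome 4, 16 on chromosome 13 and 15 on chromosome 17. Median identity between windows of the same run was 87% on chromosome 2, 81.7% on chromosome 4, 60.2% on chromosome 13 and 58.7% on chromosome 17. The least alike windows of chromosome 4, those paired with Zfp933, still scored 56.7% to 59.3% by this gapped alignment. The medians of chromosomes 13 and 17 are near that level and do not show that their windows are copies in general. The motifs searched, on both strands, were the GC box GGGCGG, the CCAAT box (CCAAT), the cAMP response element core TGACGT, the E-box CACGTG, the ETS motif CCGGAAG and ACTACAA. In the sequences printed here capitals mark their matches, on either strand. A match is a description of letters and not a site.

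On chromosome 17 the members Zfp942 and Zfp943 are read away from each other from starts 88 bp apart, and Zfp944 and Zfp758 from starts 53 bp apart. The stretch between the starts, with 25 bases of each transcript, is shown on the plus strand for both pairs because their values are compared further on. All 102 bases of the Zfp944 and Zfp758 stretch (chr17:22361376-22361477) occur unchanged in the 137 bases of the Zfp942 and Zfp943 stretch (chr17:21962440-21962576), with the same GC box and E-box.
Zfp942 and Zfp943: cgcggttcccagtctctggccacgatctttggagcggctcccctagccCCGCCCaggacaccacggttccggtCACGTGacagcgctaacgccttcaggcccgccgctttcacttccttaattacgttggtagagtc
Zfp944 and Zfp758: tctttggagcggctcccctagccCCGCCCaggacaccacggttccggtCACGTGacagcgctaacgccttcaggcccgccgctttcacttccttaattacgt

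On chromosome 2 the 275 bases around the starts of Zfp966 (chr2:175931076-175931350, minus strand) and Zfp967 (chr2:176520754-176521028, plus strand) were identical letter for letter, and are shown once. They hold CCAAT on each strand and the ETS motif near the start. CCAAT was found in 9 of 9 windows of this run and CCGGAAG in 6 of 9. Zfp984 (chr4:147809764-147810038, minus strand) is shown as the chromosome 4 member with the highest level; 1 of its CCAAT matches overlaps the GC box.
Zfp966: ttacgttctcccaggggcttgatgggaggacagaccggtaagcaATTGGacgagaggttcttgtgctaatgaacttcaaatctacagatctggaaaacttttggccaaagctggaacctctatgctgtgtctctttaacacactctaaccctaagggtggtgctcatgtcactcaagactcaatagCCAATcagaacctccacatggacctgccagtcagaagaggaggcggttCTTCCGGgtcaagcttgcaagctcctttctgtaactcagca
Zfp984: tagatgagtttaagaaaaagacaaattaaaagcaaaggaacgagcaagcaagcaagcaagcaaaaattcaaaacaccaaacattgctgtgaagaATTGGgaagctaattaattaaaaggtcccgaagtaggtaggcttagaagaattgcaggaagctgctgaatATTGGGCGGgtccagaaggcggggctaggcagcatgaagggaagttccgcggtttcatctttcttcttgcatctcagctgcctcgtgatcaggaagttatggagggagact

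Zfp595 (chr13:67332536-67332810, minus strand) and Zfp953 (chr13:67360548-67360822, minus strand) are shown as neighbours in the chromosome 13 run. Their windows were 76% identical, against 89.7% for Zfp429 and Zfp456, the most alike pair of this run. The stretches printed matched at 205 of 303 aligned columns (67.7%), so they are related in part and are not close copies. Both carry TGACGT on both strands at once, as the palindrome TGACGTCA, before the start.
Zfp595: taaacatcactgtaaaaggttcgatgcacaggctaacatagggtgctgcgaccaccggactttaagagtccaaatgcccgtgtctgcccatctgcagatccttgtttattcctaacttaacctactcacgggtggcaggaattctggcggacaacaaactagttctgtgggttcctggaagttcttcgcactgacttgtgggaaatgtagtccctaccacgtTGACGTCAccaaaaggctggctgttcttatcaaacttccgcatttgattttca
Zfp953: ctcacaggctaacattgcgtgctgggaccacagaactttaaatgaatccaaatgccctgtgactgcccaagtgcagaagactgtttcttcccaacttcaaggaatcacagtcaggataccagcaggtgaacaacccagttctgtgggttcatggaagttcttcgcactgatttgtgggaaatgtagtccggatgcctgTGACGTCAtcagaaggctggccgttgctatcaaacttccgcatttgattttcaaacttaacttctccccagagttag

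Over the 50 member windows, the E-box CACGTG was found in 22% and over 32851 RefSeq windows of the same length in 7.15%. TGACGT was found in 18% of member windows and 7.51% of all, CCGGAAG in 24% of member windows and 8.86% of all, and CCAAT in 58% of member windows and 37.4% of all. GGGCGG was in 42% of member windows and 35.7% of all, and ACTACAA in 4% of member windows and 3.24% of all. The E-box windows were mostly those of chromosome 17 (8 of 15). Since some windows of a run are close copies of each other, these shares do not count independent genes.

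All 4 runs stood lower in DON. Summed over every listed member, normalized counts were 770.9 ± 807 in DON and 2839 ± 296 in Control on chromosome 2, and 970.2 ± 303 in DON and 4550.4 ± 608 in Control on chromosome 4 (SD, n = 3 each). They were 10182 ± 3642 in DON and 17782 ± 844 in Control on chromosome 13, and 7632 ± 3331 in DON and 18923 ± 388 in Control on chromosome 17. No DON sum reached the lowest Control sum in any run. The spread within DON came mainly from DON library 1, which was the highest of the DON libraries in each run. On chromosome 2 it summed to 1701, against 339 and 272 in DON libraries 2 and 3, and on chromosome 17 to 11475, against 5578 and 5842.

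**Figure D1:**
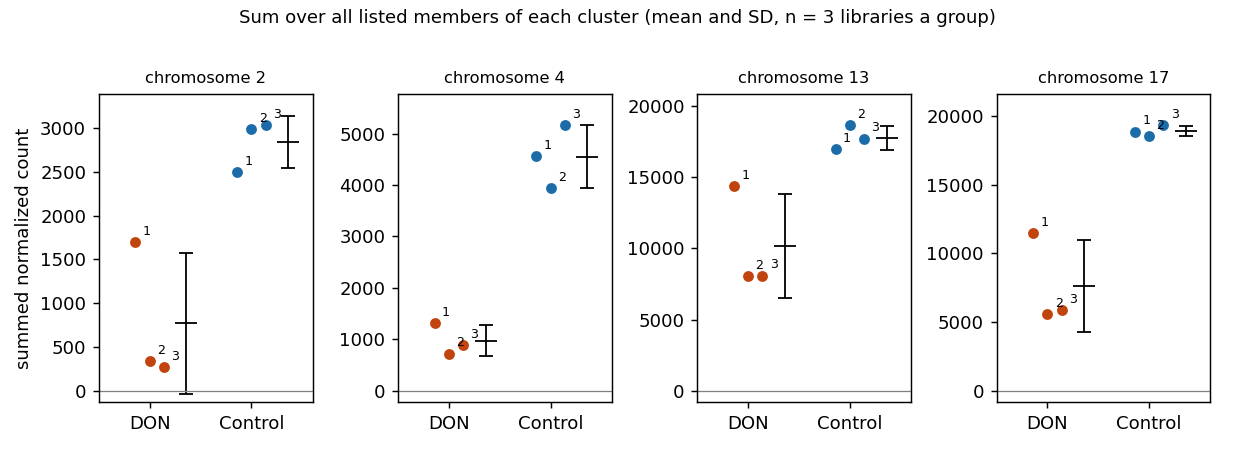
Summed normalized count of all listed members of each run (y axis, linear) in the 3 DON and 3 Control libraries; numbers give the replicate, and bars beside the points give mean and SD. DON library 1 lies between the other DON libraries and the controls on chromosomes 2, 13 and 17, and close to the other DON libraries on chromosome 4.

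Of the 62 members in the fit, 61 had a mean log2 difference below 0 and limma called 29 lower at an adjusted p under 0.05, where 4.15% of all 17185 genes tested were called lower. The members' share was 46.8%, and nothing is read from it, since they were chosen on this contrast. The count was 55 without DON library 1, 14 without DON library 2, 13 without DON library 3, and 12, 13 and 11 without Control libraries 1, 2 and 3. Calls over all 17185 genes moved the same way, from 713 lower to 2118 without DON library 1. They fell to 310 and 311 without DON libraries 2 and 3, and to 220, 199 and 193 without Control libraries 1, 2 and 3. No member was called higher (2.3% of all genes tested); at an unadjusted p under 0.05 there was 1, and edgeR called 0. All 3 DON libraries lay below all 3 controls for 49 members, where 15.7% of genes tested did so, and above them for 1 member, where 15.7% did so. The median log2 difference was -1.53 over these 62 members and 0.00 over all genes tested.

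**Figure D2:**
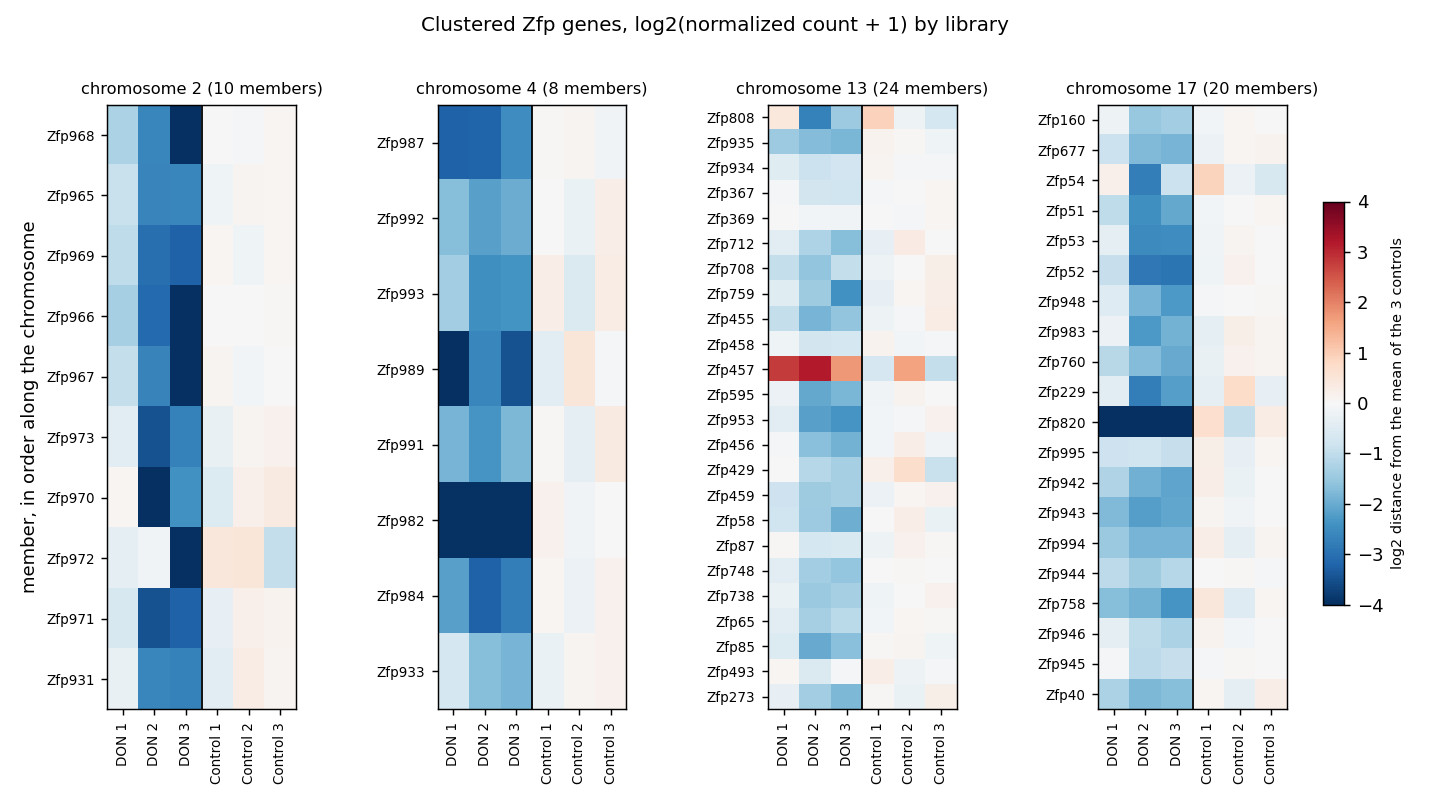
Log2 distance of each of the 62 members in the fit (rows, in chromosome order) from its mean over the 3 controls, in each library (columns, DON left of Control); the colour scale ends at -4 and 4. Rows of chromosome 4 are dark in all 3 DON columns, rows of chromosome 2 in DON columns 2 and 3, and the row of Zfp457 is the red one.

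The filter bears on these counts, since a gene low in DON can pass through its controls. Zfp820, Zfp982 and Zfp989 entered the fit through their Control libraries alone. The 12 members outside the fit were Zfp534, Zfp600, Zfp640, Zfp947, Zfp978, Zfp979, Zfp980, Zfp981, Zfp985, Zfp986, Zfp988 and Zfp990. Of these, Zfp600, Zfp640, Zfp978, Zfp980 and Zfp986 were at 0 in all 6 libraries. Zfp979, Zfp981, Zfp985, Zfp988 and Zfp990 were at 0 in all 3 DON libraries, with Control means from 0.37 to 15.2. Zfp947 and Zfp534 averaged 2.88 and 3.71 in DON and 15.6 and 12.7 in Control.

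On chromosome 2 all 10 members entered the fit, with a median log2 difference of -2.39. Of these, 2 were called lower (Zfp965 and Zfp969), where 4.15% of all genes tested were. The count was 9 without DON library 1, and 0 without any other library. The member with the highest level was Zfp971 (ENSMUSG00000074519.11, 178023284 to 178034022), with 442, 60.7 and 71.9 normalized counts in DON libraries 1 to 3 and 549, 788 and 759 in Control libraries 1 to 3 (log2 difference -2.46, SE 0.67). Zfp973 (ENSMUSG00000078879.10, 176670522 to 176719085) had 254, 29.4 and 51.7 in DON and 281, 369 and 388 in Control (log2 -2.21, SE 0.68). In both genes DON library 1 lay somewhat below the lowest control, and DON libraries 2 and 3 far below it.

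Zfp966 (ENSMUSG00000089756.2, 175918881 to 175931100) had 164, 47.3 and 0 normalized counts in DON and 414, 410.4 and 427 in Control (log2 -4.39, SE 1.6). Zfp967 (ENSMUSG00000095199.7, 176521056 to 176532479), whose start region is the copy shown for Zfp966, had 81.3, 24.1 and 0 in DON and 173, 148.1 and 159 in Control (log2 -3.66, SE 1.39). Both reached 0 in DON library 3 only, and the controls spread little. Zfp968 (ENSMUSG00000078898.9, 175372436 to 175384201) had 96.6, 37.5 and 11.1 in DON and 230, 226 and 246 in Control (log2 -2.72, SE 0.65). Zfp969 (ENSMUSG00000095545.7, 175692223 to 175703646) had 126, 31.2 and 26.3 in DON and 274, 227 and 274 in Control (log2 -2.42, SE 0.54).

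Reads of this run are hard to place. For 7 of the 10 members, at least 1 other gene matched 50% or more of the transcript at 95% identity or more. The counting may therefore have split or moved reads between them, and values of single genes are uncertain. Reads moved between members leave the sum over the run as it is. Reads moved to or from genes of other names change it, and Gm14327, for example, matched 100% of the Zfp965 transcript. How far the sum is affected was not tested. Its members' median distance from the control mean was -0.76 in DON library 1, -2.84 in DON library 2 and -3.24 in DON library 3.

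On chromosome 4, 8 of 18 members entered the fit and all 8 were called lower, where 4.15% of all genes tested were. Among the 8, Zfp982 and Zfp989 passed the filter through Control alone, which favours a lower value in DON. The median log2 difference was -2.40, or -2.05 with genes at 0 in DON set to a floor of 3 units in each library. Without DON library 1 the count was again 8, and without any other library it was 4 or 5. Zfp984 (ENSMUSG00000078495.10, 147753974 to 147809788), whose start region is shown above, had 529.8, 257 and 353 normalized counts in DON and 2525, 2058 and 2693 in Control (log2 -2.73, SE 0.25). Per kilobase of transcript it averaged 139 in DON and 889 in Control, the highest Control level of the 62 members. Zfp992 (ENSMUSG00000070605.4, 146449023 to 146470292) had 175.01, 125 and 144 in DON and 562, 475 and 683 in Control (log2 -1.95, SE 0.19). Here DON library 1 stood with the other DON libraries and the groups were far apart.

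Zfp933 (ENSMUSG00000059423.13, 147822986 to 147848366) had 375, 186 and 167 in DON and 510.3, 653 and 683 in Control (log2 -1.42, SE 0.30), the smallest difference in the run. Zfp987 (ENSMUSG00000066009.8, 146097298 to 146126621) had 10.5, 10.7 and 18.2 in DON and 110.5, 115 and 98.4 in Control (log2 -2.99, SE 0.33). Zfp989 (ENSMUSG00000086147.2, 146971976 to 146990755) had 0, 2.68 and 1.01 in DON and 15.6, 30.7 and 20.5 in Control (log2 -3.53, SE 0.81). The lowest member in the fit was Zfp982 (ENSMUSG00000078496.9, 147492417 to 147513486), at 0 in all DON libraries and at 16.6, 13.2 and 14.4 in Control, which is at least 5.14-fold lower against a floor of 3 units in each library. Near-identical copies limit single genes here too, for 9 of the 18 members.

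On chromosome 13, 24 of 25 members entered the fit, with a median log2 difference of -1.15. Of these, 7 were called lower, where 4.15% of all genes tested were. The count was 19 without DON library 1, and 1 without any other library. Zfp369 (ENSMUSG00000021514.18, 65278814 to 65304221), which encodes a protein found through its link to the p75 neurotrophin receptor and stands apart from the dense part of the run, had 2439, 2285 and 2260.3 normalized counts in DON and 2483, 2346 and 2646 in Control. Its log2 difference was -0.10 (SE 0.08, 95% interval -0.28 to 0.08), the groups overlapped, and at 800 per kilobase it had the highest DON level of the members. Zfp367 and Zfp493 (named after their values were seen) also differed little, at log2 -0.53 (SE 0.19) and -0.18 (SE 0.22), with overlapping groups.

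Most members in the dense part of the run lay lower in DON libraries 2 and 3. Over the whole run, 17 of 24 fitted members stood at a log2 distance of -1 or lower from the control mean in DON library 2, and 16 in DON library 3. Within the dense part Zfp493 stood at -0.59 and -0.05 in these libraries, and Zfp457 at 3.17 and 1.75. Zfp738 (ENSMUSG00000048280.18, 67658685 to 67687071) had 1789, 778 and 866 in DON and 1929, 2162 and 2426 in Control (log2 -1.02, SE 0.29). Zfp595 (ENSMUSG00000057842.14, 67312998 to 67332570) had 1310.2, 377 and 432 in DON and 1419, 1705 and 1539 in Control (log2 -1.37, SE 0.42). Zfp953 (ENSMUSG00000098905.2, 67339306 to 67360605), whose start region is set beside that of Zfp595, had 732, 217 and 191 in DON and 928, 937 and 1119 in Control (log2 -1.66, SE 0.46). In these 3 genes DON library 1 lay below the controls by little, and the other DON libraries by much. Gm17039, a gene of another name read from 66 bp away in the other direction from Zfp953, averaged 193 ± 127 in DON and 209 ± 33.6 in Control (log2 -0.29).

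Zfp935 (ENSMUSG00000113450.1, 62453016 to 62466832 for the row printed, with a second row of the same symbol added to it) had 304, 254 and 234 in DON and 917, 860.3 and 753 in Control (log2 -1.68, SE 0.14). All 3 DON libraries of this gene were close together. Zfp457 (ENSMUSG00000055341.10, 67288138 to 67306485) was the member that went the other way: it had 53.6, 69.6 and 25.3 in DON and 3.91, 23 and 3.08 in Control (log2 2.57, SE 0.77). Its DON libraries all lay above its controls, the lowest by little, and limma did not call it.

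On chromosome 17, 20 of 21 members entered the fit, with a median log2 difference of -1.61. Of these, 12 were called lower, where 4.15% of all genes tested were. The count was 19 without DON library 1, and 6 to 9 without any other library. Zfp945 (ENSMUSG00000059142.15, 22846697 to 22867134) had the highest counts of any member, with 3272, 1692 and 1829 in DON and 3277, 3615 and 3525 in Control (log2 -0.68, SE 0.23). DON library 1 matched the lowest control nearly exactly. Zfp53 (ENSMUSG00000057409.6, 21491256 to 21509764) had 1418, 317 and 334 in DON and 1709.8, 2010.3 and 1912 in Control (log2 -1.81, SE 0.52). Zfp52 (ENSMUSG00000051341.5, 21555046 to 21562066) had 438, 112 and 107 in DON and 729, 919.6 and 833 in Control (log2 -2.23, SE 0.49).

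The genes of the head-to-head pairs were lower in every DON library, but evenness across these libraries was not particular to them. Zfp942 stood at log2 -1.22, -1.92 and -2.11 from the control mean in DON libraries 1 to 3. The unpaired Zfp995 stood at -0.84, -0.78 and -0.91 (named after its values were seen). Zfp943 (ENSMUSG00000053347.14, 21962552 to 22071168) had 597, 443 and 486 in DON and 2209, 1860.0 and 2094 in Control (log2 -2.02, SE 0.13). Its partner Zfp942 (ENSMUSG00000071267.11, named for the pair) had 748, 459 and 403 in DON and 2109, 1456 and 1712 in Control (log2 -1.75, SE 0.24). Both genes of the pair stood far below their controls in every DON library.

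Zfp758 (ENSMUSG00000044501.17, 22361453 to 22377281) had 255, 226 and 162 in DON and 1152, 586 and 877 in Control (log2 -1.99, SE 0.27). Its partner Zfp944 (ENSMUSG00000033972.9, named for the pair) had 417, 321 and 388 in DON and 867, 892 and 824 in Control (log2 -1.20, SE 0.13). The groups of these 4 genes did not overlap, and all 4 were called lower. Zfp820 (ENSMUSG00000069743.4, 21816876 to 21845759) was at 0 in all DON libraries and at 43.0, 13.2 and 32.8 in Control, at least 10.4-fold lower against the floor of 3 units in each library.

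At the ends of the runs the choice of stretch can be read against the next Zfp-plus-digits gene. Above the chromosome 13 run lay Zfp72, outside it, with 68.9, 43.7 and 29.4 in DON and 160, 124 and 186 in Control; Zfp273, just inside, had 272, 128 and 97.3 in DON and 349, 279 and 397 in Control. Below the chromosome 17 run lay Zfp97, outside it, with 158, 74.0 and 83.1 in DON and 425, 514 and 450.2 in Control; Zfp160, just inside, had 1271, 517 and 557 in DON and 1358, 1566 and 1498 in Control. Both outside genes were thus lower in every DON library, like the members beside them.

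The other outside neighbours were different. Zfp213, above the chromosome 17 run, averaged 779 ± 122 in DON and 678 ± 38.6 in Control, beside Zfp40 just inside with 129 ± 27.7 in DON and 391 ± 81.7 in Control. Zfp346, below the chromosome 13 run, averaged 1370 ± 155 in DON and 1157 ± 86.0 in Control, beside Zfp808 with 27.9 ± 29.3 in DON and 51.4 ± 31.4 in Control. Zfp831, below the chromosome 2 run, averaged 5557.5 ± 96.7 in DON and 5602 ± 276 in Control, beside Zfp968; Zfp931 closes that run with 83.0 ± 83.9 in DON and 228 ± 54.7 in Control. Zfp46, below the chromosome 4 run, averaged 143 ± 22 in DON and 356 ± 429 in Control, with 1 control at 849.5; Zfp990 and Zfp933 are the outermost members inside.

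Genes of other names inside the same stretches differed by run; over all genes tested, 4.15% were called lower and 2.3% higher. On chromosome 2 the 36 tested had a median log2 difference of -1.44, with 9 called lower, and on chromosome 17 the 5 tested had a median of -1.99, with 2 called lower. On chromosome 4 the 23 tested had a median of -0.06, with 3 called lower, and on chromosome 13 the 59 tested had a median of -0.16, with 7 called lower and 1 higher. Several of the called genes are zinc finger genes by name: Zfp729a averaged 906 ± 497.5 in DON and 2483 ± 168 in Control, and Zfp729b 553 ± 369 in DON and 1799 ± 146 in Control (both named after their values were seen). Among the 263 tested Zfp-plus-digits genes outside the stretches, 17 (6.46%) were called lower and 5 higher, with a median log2 difference of -0.05.

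**Figure D3:**
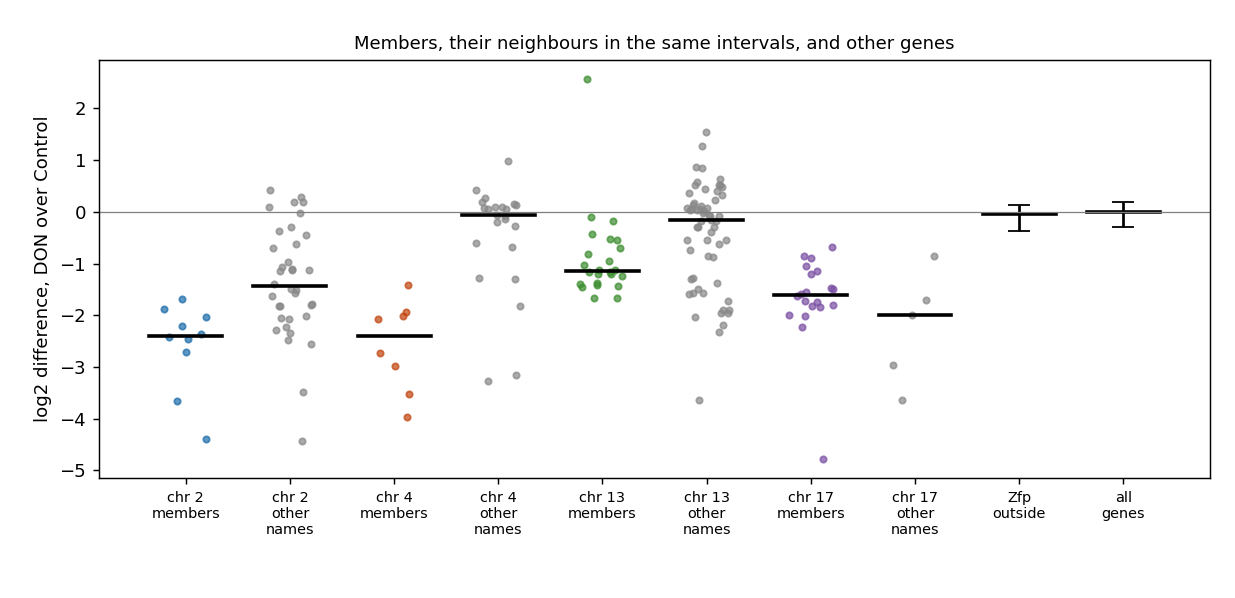
Log2 difference, DON over Control, of members (coloured points) and of genes of other names in the same stretches (grey points), with the median as a black bar; for Zfp-plus-digits genes elsewhere and for all genes tested the bar is the median and the whiskers are the quartiles. Members lie below 0 in each run except Zfp457, while other names centre near 0 on chromosomes 4 and 13.

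DON library 1 was set apart from the other DON libraries in these genes. The members' median log2 distance from the control mean was -0.60 in DON library 1, -1.85 in DON library 2 and -1.88 in DON library 3. A distance of -1 or lower was reached by 20 members in DON library 1, 53 in DON library 2 and 51 in DON library 3. On chromosome 4 DON library 1 reached it for 7 of 8 members, and on chromosome 13 for 1 of 24. Its median excess over the mean of DON libraries 2 and 3 was 2.51 on chromosome 2 and 0.30 on chromosome 4. It was 0.84 on chromosome 13 and 0.84 on chromosome 17. Within the chromosome 4 run the excess went from -1.44 (Zfp989) to 1.08 (Zfp933). Zfp982, at 0 in all DON libraries, can only have an excess of 0, and Zfp987 and Zfp989 had low counts in DON. The median of this run rests in part on these genes. It does not show that DON library 1 stood closer to the others there.

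**Figure D4:**
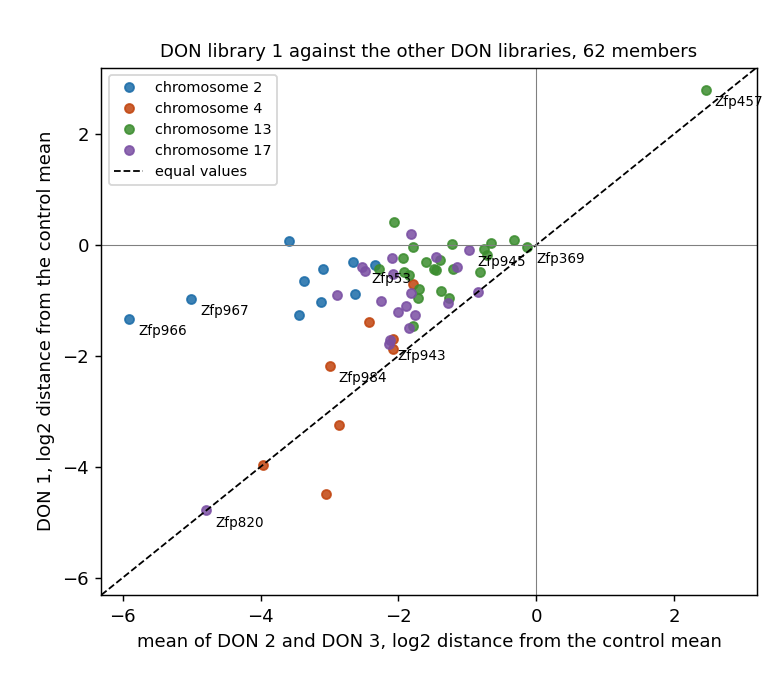
Log2 distance from the control mean in DON library 1 (y axis) against the mean of DON libraries 2 and 3 (x axis) for the 62 members, coloured by run; the dashed line marks equal values. Members of chromosome 2 lie far above the line, while Zfp943 lies near it. Zfp820 lies on the line because it was at 0 in every DON library.

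Base composition moves with this excess over the whole table. The longest transcripts of the members were AT-rich, with a median GC content of 38.7%, against 49.4% over all genes tested. Across 17149 genes the excess of DON library 1 correlated with GC content at a Pearson r of -0.27; across the 62 members r was 0.19, and genes that share libraries are not independent. By run, r was -0.10 on chromosome 2 (10 members), 0.41 on chromosome 4 (8), -0.32 on chromosome 13 (24) and 0.60 on chromosome 17 (20). The 840 other tested genes between 37.3% and 40.1% GC, the middle range of the members, had median distances of -0.08, -0.57 and -0.61 in DON libraries 1, 2 and 3. Of these 840 genes 112 (13.3%) were called lower, with a median log2 difference of -0.43. After a trend on GC content was taken out of each library, the members' median log2 difference was -1.11. With this correction 27 members were called lower and 1 higher (Zfp457), where 825 and 624 of all 17185 genes tested were. The corrected medians by run were -2.08, -1.92, -0.67 and -1.20 on chromosomes 2, 4, 13 and 17. Zfp369 then stood at 0.25 and Zfp945 at -0.08.

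The translated coding sequences of the GENCODE M21 models showed what the members share. A KRAB A box was matched in 72 of the 74, all but Zfp367 and Zfp640, and Zfp640 is annotated as a pseudogene. The pattern was set after these sequences were seen, and genes other than members were not searched with it. The median number of C2H2 fingers was 11 on chromosomes 2 and 4 and 14 on chromosomes 13 and 17, with up to 23, in Zfp748. Across the 62 members, the log2 difference correlated with the number of fingers at r = 0.18, with protein length at r = 0.15, with transcript GC content at r = 0.23 and with the log2 level per kilobase at r = 0.26. These are weak, and some members are close copies of others, so members are not independent.

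Partners of KRAB zinc finger proteins were not used to choose the members, though their list too was drawn up with earlier results of these data known. Of 30 listed partners, all tested, 3 (10%) were called lower and 0 higher by limma, where 4.15% of all genes tested were called lower and 2.3% higher (edgeR called 0 higher, and 1 was higher at an unadjusted p under 0.05), and the list's median log2 difference was -0.05. Trim28, the corepressor that KRAB domains bind, had 7206, 8501 and 8594 normalized counts in DON and 8535, 7342 and 7394 in Control (log2 0.06, 95% interval -0.15 to 0.28, limma adjusted p = 0.723). Setdb1, the histone H3 lysine methyltransferase that TRIM28 recruits, had 3540.4, 3526 and 3418 in DON and 3452, 3271 and 3332 in Control (log2 0.06, 95% interval -0.08 to 0.21, limma adjusted p = 0.59). The groups overlapped for both genes.

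The 3 partners called lower act with DNA methylation or with SETDB1, which does not set them apart from the list. The DNA methyltransferase genes Dnmt1 (log2 0.15), Dnmt3a (0.39) and Dnmt3b (-0.01) are on it and were not called. Uhrf1, which brings the maintenance DNA methyltransferase to newly copied DNA, averaged 290.0 ± 41.5 in DON and 822 ± 49.8 in Control (log2 -1.51, limma adjusted p = 0.00133). Hells, a chromatin remodeller needed for DNA methylation of repeats, averaged 213 ± 132 in DON and 758 ± 122 in Control (log2 -1.98, limma adjusted p = 0.0241). The gene listed as 2810474O19Rik (Resf1), a partner of SETDB1 in silencing endogenous retroviruses, averaged 2311 ± 298 in DON and 7289 ± 1024 in Control (log2 -1.66, limma adjusted p = 0.000806). The call of Hells was lost when any library other than DON library 1 was left out, which left 2 partners called lower each time. Without DON library 1, 8 partners were called lower and 1 higher, where 2118 and 1119 of all 17185 genes tested were. DESeq2 called 5 partners lower, and 1348 of all genes tested.

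**Figure D5:**
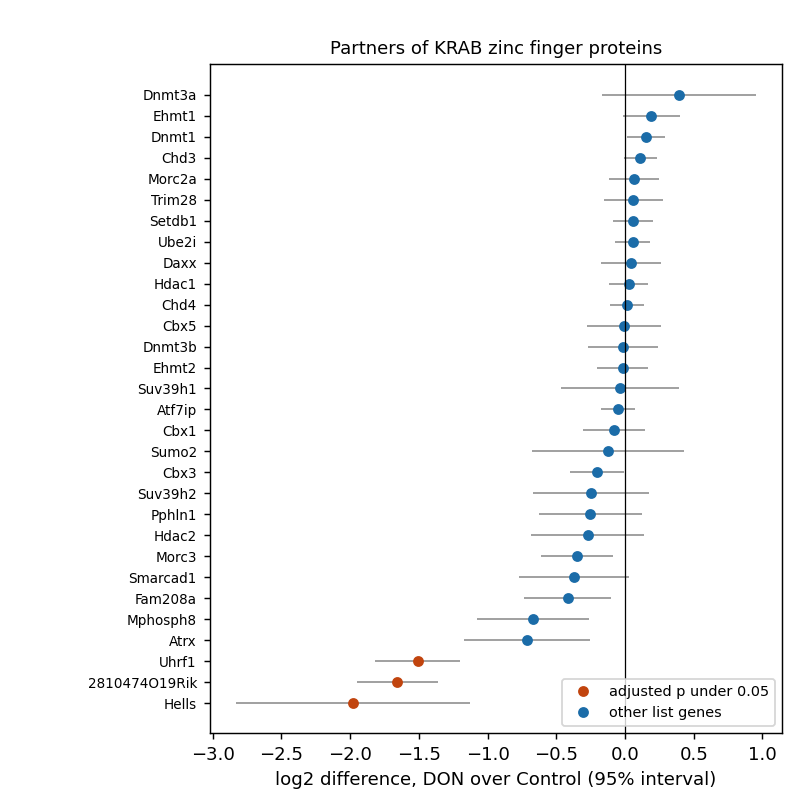
Log2 difference, DON over Control, with its 95% interval (limma, 3 libraries a group) for the 30 listed partners of KRAB zinc finger proteins; orange points passed an adjusted p of 0.05. Uhrf1, 2810474O19Rik and Hells lie at -1.51, -1.66 and -1.98, while Trim28 and Setdb1 lie at 0.06.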

How the data were processed

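The 6 mRNA sequencing libraries used were 3 DON and 3 Control libraries, grouped by their labels. Per the labels' protocols, Trizol was used for RNA and a VAHTS mRNA-seq v2 kit for the libraries. HISAT2 and StringTie, and as builds mm8 and mm10, are named in the submitters' processing notes without role or version. Strand handling is not given in the sources used, so reads of 35 members that overlap another listed gene (21 of them a gene with a mean of at least 10) may be shared with it. Per the file headers, the deposited columns held normalized counts, a signal per gene that the authors had scaled by 1 factor per library. Within a library, all values (100%, tolerance 0.001) were whole multiples of 1 step, and division by it gave the recovered units. A unit may stand for more or less than 1 read, since 854 to 903 genes per library stood at 4 units, against 382 to 446 at 3 and 529 to 587 at 5. Positions are as the files list them; 67 of the 75 member rows matched GENCODE M21 (GRCm38).

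Values of rows sharing a symbol were summed. limma 3.58.1 in R 4.3.3 (variance trend, two-sided) compared DON with Control on log2(deposited value + 1) over 17185 genes with at least 10 normalized counts in at least 3 libraries, with Benjamini-Hochberg adjustment at 0.05. The log2 scale with an added 1 understates changes of low genes. The recovered units went into edgeR 4.0.16 and DESeq2 1.42.0 as alternatives; edgeR called 638 genes lower and 360 higher. Near-identical transcripts were found with BLAST 2.17.0 (95% identity or more, on 50% or more of the transcript). Fingers and KRAB A boxes were matched by pattern in translated coding sequences; the KRAB pattern was set after the sequences were seen. The GC correction took a loess curve (span 0.5) on transcript GC content out of each library. Start windows were used where the RefSeq start lay within 500 bp of the listed one.

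The members and lists were chosen with earlier results of these data known. Named genes are, in each run, the 3 fitted members with the highest mean, the 3 others with the largest absolute log2 difference, each partner past the threshold with Trim28 and Setdb1, and the Zfp-plus-digits genes nearest the ends of the stretches. Macrophage markers (14) had 2 called lower and 5 higher in DON, erythroid markers (8) 0 and 1, and γδ and T cell markers (9) 3 and 1. Alternatives were another pseudocount (0.1), other filters, TMM scaling, equal library totals, edgeR, DESeq2, GC correction, the replicate block, each library left out in turn, DON library 1 alone against the controls, and leaving out near-identical members.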

Additional observations from a re-analysis of the deposited data

How the results depend on the processing

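The median log2 difference of the members stayed below 0 in each run under every alternative run. It moved by more than the spread between replicates to -0.76, -2.03, -0.37 and -0.89 on chromosomes 2, 4, 13 and 17 with DON library 1 alone against the controls, where a lone library takes the controls' spread as its own. On chromosome 4 it moved to -2.01 with a minimum of 100 normalized counts, to -1.92 with the GC correction, with or without the replicate block, and to -2.73 without near-identical members; a higher minimum and the last setting leave fewer members. The count of members called lower was 29, 24 in edgeR, 38 in DESeq2 and from 11 to 55 with each library left out. With the replicate block it was 14, and 14 with the block and GC correction. Over all genes tested, 713 were called lower in the main fit, 638 in edgeR and 1348 in DESeq2. That number was 240 with the replicate block, 342 with the block and GC correction, and from 193 to 2118 with each library left out. Members called higher numbered 1 in DESeq2, with GC correction and with the block and GC correction, against 0. Over all genes tested, 790, 624 and 166 were called higher in these settings, against 395 in the main fit. Partners called lower numbered 5 in DESeq2 and from 2 to 8 with each library left out and 2 with the replicate block, those called higher from 0 to 1. Trim28 stood at -0.10 with DON library 1 alone and Zfp369 at 0.25 with GC correction, with or without the block. Over single genes, 423 values kept direction and side of the threshold, 68 lost and 21 gained the call, and 3 changed sign; the causes were not tested. Same-numbered libraries correlated at -0.06, -0.05 and -0.05 in their deviations from group means. The labels do not say what the number marks, and with 3 libraries a group these correlations cannot decide whether a mouse, day or batch was shared.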

Other observations

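Within the chromosome 17 run the libraries differed by position, at a division between Zfp229 and Zfp820 that was chosen after the values were seen and carries no test. In the 10 fitted members before it, the median log2 distance from the control mean was -0.50 in DON library 1, -2.37 in DON library 2 and -2.03 in DON library 3. In the 10 fitted members from it on, which include both head-to-head pairs, the medians were -1.24, -1.82 and -1.78. The lowest control was Control library 1 for 9 of the 10 genes before the division. After it, Control library 2 was lowest for 8 of the 10. Over all genes tested, Control library 1 was lowest in 32.9% and Control library 2 in 34.3%.

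Some genes of other names in these stretches were called as well. Gm13212 on chromosome 4 averaged 237 ± 121 normalized counts in DON and 1983 ± 410 in Control (log2 -3.16), and Znf41-ps, named as a zinc finger pseudogene, 72.9 ± 34.0 in DON and 671.5 ± 66.6 in Control (log2 -3.28). Tnfrsf8, which encodes the activation receptor CD30 and is no zinc finger gene, lies in the same stretch and averaged 857 ± 123 in DON and 2073 ± 144.8 in Control (log2 -1.28). Habp4 on chromosome 13 was the 1 gene of another name called higher, at 2331 ± 137 in DON and 1675 ± 239 in Control (log2 0.49). These genes were named after their values were seen.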
